A study of Mus musculus with 4 samples.

Results

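The MYC, MAX and MXD genes encode a family of helix-loop-helix leucine-zipper transcription factors, and 8 of them, Myc, Mycn, Mycl, Max, Mxd1, Mxd3, Mxd4 and Mnt, were followed here. Members were the rows whose gene symbol matched one of these names, which gave 8 of the 54838 genes listed, 1 row per symbol. They were measured by RNA sequencing of bulk cultures of Hepa1-6, a mouse hepatocellular carcinoma line. The 2 NC libraries carry the genotype label Acvr2a Wild type and the 2 KO libraries Acvr2a knockout. Acvr2a encodes a type II activin receptor, and the series title sets the comparison in the context of lactate, glycolysis and regulatory T cells. The design text calls the knockout cells subclones. It does not say how many subclones there were or whether replicates were separate cultures, so p-values measure only the spread between these libraries.

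MYC, MYCN and MYCL bind DNA only as heterodimers with MAX, at E-box sequences near the start sites of growth, ribosome and metabolism genes. MXD proteins and MNT compete for MAX and for the same sites, and bring in the SIN3 and histone deacetylase corepressors. Myc is a frequent driver of liver tumours, and in many epithelial cells it is repressed by signalling from TGF-beta receptors through SMAD proteins.

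Each library held between 11597923 and 13910582 counts, and 12510 genes passed edgeR's filter on low counts, all 8 members among them. At a Benjamini-Hochberg threshold of 0.05, edgeR's quasi-likelihood fit called 4741 genes (37.9% of those tested: 19.7% higher and 18.2% lower in KO), with a median log2 fold change of -0.0037 over all genes tested. The targeted gene gave little separation. Acvr2a was read 81 and 108 times in the NC libraries and 75 and 97 times in the KO libraries (log2 fold change -0.21, SE 0.20, adjusted p = 0.433), so its RNA total did not tell the labels apart and KO names the label throughout. Of 10 hepatocyte markers 8 were tested, 2 rose and 4 fell. Alb (1.32-fold) and Trf (1.45-fold) rose, and those that fell included Afp (to 0.431 of the NC level), Hnf4a (to 0.502) and Foxa2 (to 0.538). Alb had at least 9550 counts and Afp at least 1507 in each library, whereas Ttr and Serpina1a had at most 5 counts in any library. Markers of other cell types summed to between 85.7 and 101 TPM in NC and between 145 and 151 TPM in KO. Of these 12 markers 6 were tested, 4 rose (Cd68 2.3-fold, Krt19 1.65-fold, Col1a1 6.64-fold, Epcam 1.5-fold) and 1 fell (Sox9, to 0.697), while Cd3e, Cdh5 and Col3a1 had no count in any library and Ptprc at most 2. The part of these markers in the results below was not tested. In bulk RNA, fewer cells of a type and less RNA per cell cannot be told apart.

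Mxd4 and Mycl rose in KO and Max fell, while Myc, the most abundant member, did not pass the test. Mxd4 was 2.65-fold higher (adjusted p = 8.15e-10), Mycl 1.65-fold higher (adjusted p = 0.00141) and Max was at 0.731 of its NC level (adjusted p = 0.000448, all edgeR quasi-likelihood). Mycn, Mxd1, Mxd3 and Mnt did not pass. The share of members called, 3 of 8 (37.5%), is close to the 37.9% called among all genes, so the count by itself does not set the family apart. Other fits called other shares of all genes. These were 38% with RLE scaling, 37.1% with upper quartile scaling, 39.4% with robust edgeR, 23% with no filter, 25.7% with DESeq2 and 40% with a replicate block. With 1 library left out they were 27.2% (NC 1), 29.9% (NC 2), 35% (KO 1) and 27.9% (KO 2). With limma they were 15.1% on log2(TPM + 1), 8.76% on log2(TPM + 0.1), 26.7% with 1 transcript length per gene and 0% on unfiltered TPM, where 4730 genes had an unadjusted p under 0.05.

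The promoters of the 3 called members are shown because the E-box is the site that the family's own proteins bind. RefSeq promoters on GRCm38.p6, from 250 bases before to 50 after a start site, were at hand for 7 of the 8 members, Myc being the exception. The search was for CACGTG, which reads the same on both strands and contains ACGTG, the core of the hypoxia response element. Matches are in capitals.
Mxd4 (chr5:34187661-34187960, minus strand): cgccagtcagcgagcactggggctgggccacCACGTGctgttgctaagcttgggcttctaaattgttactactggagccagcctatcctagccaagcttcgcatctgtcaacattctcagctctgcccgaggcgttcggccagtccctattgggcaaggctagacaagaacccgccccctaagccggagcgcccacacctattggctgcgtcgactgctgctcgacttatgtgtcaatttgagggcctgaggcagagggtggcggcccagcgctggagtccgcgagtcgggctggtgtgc
Max (chr12:76962199-76962498, minus strand): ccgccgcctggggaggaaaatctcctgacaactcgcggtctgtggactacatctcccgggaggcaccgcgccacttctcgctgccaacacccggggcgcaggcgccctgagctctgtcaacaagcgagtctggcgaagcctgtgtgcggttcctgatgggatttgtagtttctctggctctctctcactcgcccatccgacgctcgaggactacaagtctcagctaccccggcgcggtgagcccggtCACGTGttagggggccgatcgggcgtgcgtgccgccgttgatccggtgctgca
Mycl (chr4:122995681-122995980, plus strand): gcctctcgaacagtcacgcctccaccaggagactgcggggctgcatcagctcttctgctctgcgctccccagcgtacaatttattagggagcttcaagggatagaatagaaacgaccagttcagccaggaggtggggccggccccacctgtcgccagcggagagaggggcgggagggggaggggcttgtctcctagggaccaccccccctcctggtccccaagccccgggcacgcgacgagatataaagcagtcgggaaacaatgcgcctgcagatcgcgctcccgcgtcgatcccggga
The Mxd4 match starts at base -219 from the start site and the Max match at base -3. The Mycl window has none. Mnt also holds a match, at base -123, and Mycn, Mxd1 and Mxd3 do not. The 3 members with a match among 7 compare with 7.15% of all 32851 promoters in the table, and with 8.09% of its 27025 genes. A match describes the letters only, and no binding was measured.

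Levels of different genes were compared in TPM, which is scaled by transcript length. Over the 4 libraries Myc lay between 168 and 236 TPM, Max between 58.9 and 91.9 TPM, Mnt between 26.7 and 34.9 TPM, and Mxd3 between 14.8 and 21.4 TPM. Mxd4 lay between 6.23 and 16.3 TPM, Mycl between 3.42 and 10.8 TPM, Mxd1 between 2.55 and 3.4 TPM, and Mycn between 0.91 and 1.79 TPM. The ranges of Mxd3 and Mxd4 overlapped, as did those of Mxd4 and Mycl, and the other neighbours in this order did not overlap. By its mean, Myc stood above 95.7% of the genes tested and Mycn above 11.6%. Myc made up 97.9% and 97.7% of the TPM of the 3 MYC genes in NC, and 94.6% and 96.2% in KO.

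**Figure D1:**
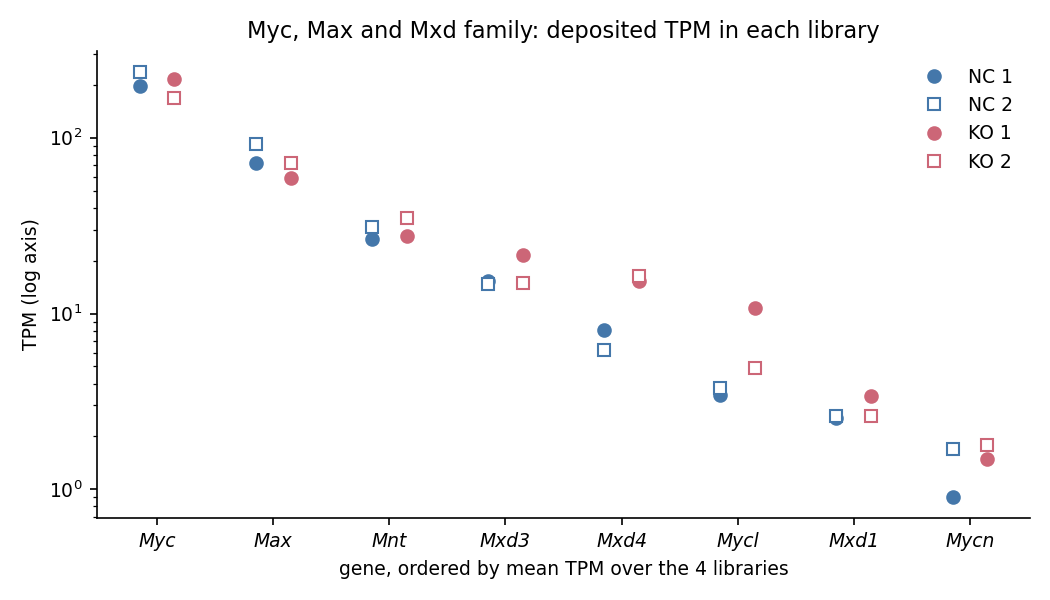
Deposited TPM of the 8 genes (log axis) in each of the 4 libraries, with NC in blue, KO in red, replicate 1 filled and replicate 2 open. The KO points of Mxd4 (15.4 and 16.3 TPM) lie above both NC points (8.07 and 6.23 TPM), while the KO and NC points of Myc overlap.

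Among the activators, Myc (chromosome 15, 61985391 to 61990374, GRCm38) is the broadly acting growth regulator. NC libraries held 3427 and 4893 counts and KO libraries 3950 and 3452, or 301 and 353 CPM (library-scaled counts) against 299.8 and 256 CPM. On the CPM scale NC 1 and KO 1 nearly coincided and NC 2 and KO 2 stood apart from them, and on the TPM scale the groups overlapped (198 and 236 TPM in NC, 215 and 168 TPM in KO). The NC mean was 327 ± 36.7 CPM and the KO mean 278 ± 31.3 CPM (SD, n = 2). On the log2 scale the difference was -0.24 (SE 0.10, 95% interval -0.44 to -0.035), which missed the threshold (edgeR quasi-likelihood, adjusted p = 0.0593). The call depended on the fit and on the libraries. With all 4 libraries it passed with the replicate block (edgeR adjusted p = 0.0457), with robust edgeR (0.0349) and with no filter (0.0365). It did not pass with RLE scaling (edgeR adjusted p = 0.0595), with upper quartile scaling (0.0917) or with DESeq2 (0.0979). With limma on TPM it did not pass either, from 0.437 with 1 transcript length per gene to 0.606 unfiltered. Without NC 1 it was -0.35 (adjusted p = 0.0193) and without KO 1 -0.36 (adjusted p = 0.00423), but without NC 2 it was -0.12 (adjusted p = 0.507) and without KO 2 -0.13 (adjusted p = 0.392).

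Mycl (chromosome 4, 122995652 to 123002485), the paralog first described in lung cancer, was low but higher in KO. NC libraries held 114 and 148 counts and KO libraries 269 and 187, or 10.03 and 10.7 CPM against 20.4 and 13.8 CPM. Both KO libraries were above both NC libraries, and KO 1 was the highest by a wide margin. The log2 fold change was 0.72 (SE 0.17, adjusted p = 0.00141, edgeR quasi-likelihood). Without KO 1 it was 0.42 and the call was lost (adjusted p = 0.0772). In TPM the contrast was 3.42 and 3.79 against 10.8 and 4.93.

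Mycn (chromosome 12, 12936093 to 12941914), the paralog of neural and early progenitor cells, was the least abundant member. NC libraries held 23 and 51 counts and KO libraries 41 and 53, so the groups overlapped. Counting error alone was 20.9% of the value in the lowest library. The log2 fold change was 0.28 (SE 0.31, 95% interval -0.36 to 0.92, adjusted p = 0.51), which leaves a change of either sign possible at this depth. It reversed to -0.072 without NC 1.

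Max (chromosome 12, 76937269 to 76962201), the partner that MYC proteins need to bind DNA, fell. NC libraries held 1034 and 1386 counts and KO libraries 906 and 958, or 90.9 and 100.1 CPM against 68.8 and 70.9 CPM. The KO libraries were close to each other and both below the NC libraries. The mean was 95.5 ± 6.46 CPM in the NC libraries against 69.8 ± 1.52 CPM in the KO libraries (SD, n = 2). On the log2 scale the difference was -0.45 (SE 0.095, edgeR adjusted p = 0.000448). It stayed between -0.53 and -0.38 with each library left out, and each of these passed. In TPM the groups were barely apart (72.2 and 91.9 against 58.9 and 71.8), and the call was lost in the TPM fits (adjusted p = 0.237 with a pseudocount of 1).

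**Figure D2:**
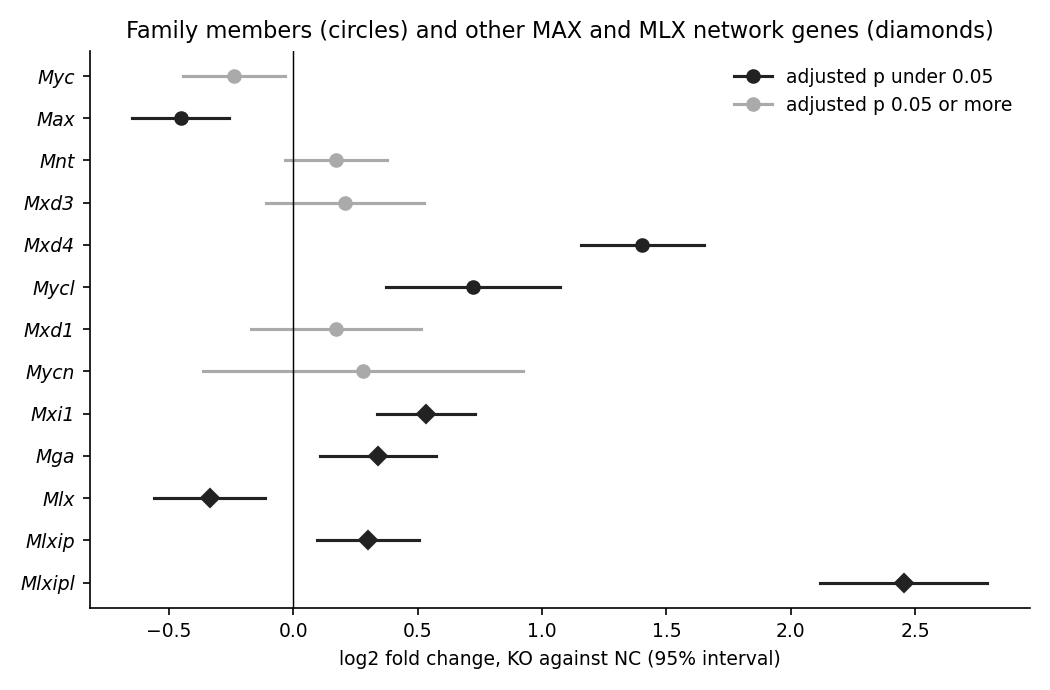
Log2 fold change of KO against NC with its 95% interval for the 8 genes (circles) and 5 other genes of the MAX and MLX network (diamonds), black where the adjusted p is under 0.05. Mxd4 (1.4) and Mlxipl (2.45) lie farthest to the right and Max (-0.45) farthest to the left.

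Among the repressors, Mxd4 (chromosome 5, 34173883 to 34187720), which pairs with MAX or MLX and is known from differentiating cells, changed most. NC libraries held 193 and 239 counts and KO libraries 555 and 655, or 17.0 and 17.3 CPM against 42.1 and 48.5 CPM. The groups were far apart and the replicates close. Group means were 17.1 ± 0.20 and 45.3 ± 4.50 CPM (SD, n = 2). This gave a log2 difference of 1.4 (SE 0.12, 95% interval 1.16 to 1.65, edgeR adjusted p = 8.15e-10). Of the genes tested, 5.72% rose by more than 2-fold with an adjusted p under 0.05. Leaving out each library gave 1.30 to 1.5. In limma on filtered TPM the difference was smaller, at 1.05 with a pseudocount of 1 and 1.15 with 0.1. Mxd4 had 8.07 and 6.23 TPM in NC and 15.4 and 16.3 TPM in KO. Its exons overlap those of Gm42846 on the other strand, and whether counting used strand is not given in the sources used here, so reads of the pair cannot be told apart.

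Mxd1 (chromosome 6, 86647042 to 86669161), the founding MXD gene, had 118 and 144 counts in the NC libraries against 171 and 141 in the KO libraries. On the CPM scale KO 2 (10.4) matched both NC libraries (10.4 and 10.4) and KO 1 was higher (13.0). The log2 fold change was 0.17 (SE 0.17, 95% interval -0.17 to 0.51, adjusted p = 0.444).

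Mxd3 (chromosome 13, 55325168 to 55329823), the MXD gene tied to dividing cells, showed the same single high library. It had 16.0 and 14.5 CPM in NC and 20.5 and 14.7 CPM in KO, and the groups overlapped. The log2 fold change was 0.21 (SE 0.16, 95% interval -0.11 to 0.53, adjusted p = 0.305). It reversed to -0.048 without KO 1 and passed without KO 2 (0.43, adjusted p = 0.0441). Its exons overlap those of Prelid1 on the other strand.

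Mnt (chromosome 11, 74830920 to 74845725), a broadly expressed antagonist of MYC, was the most abundant repressor. It had 61.1 and 72.7 CPM in NC and 73.0 and 78.0 CPM in KO. The KO libraries were above the NC libraries, but NC 2 and KO 1 were almost equal. The log2 fold change was 0.17 (SE 0.10, 95% interval -0.035 to 0.38, adjusted p = 0.186), and it was 0.047 without NC 1. Over the family, the CPM values of NC and KO did not overlap for 6 of 8 members, against 69.4% of all genes tested, and the TPM values for 3 of 8, against 62.7%.

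Summed by role, the 4 repressor genes reached 52.6 and 54.6 TPM in NC and 67.8 and 68.7 TPM in KO. The 3 MYC genes reached 202 and 242 TPM in NC and 227 and 175 TPM in KO. The repressors were thus higher in both KO libraries while the MYC genes overlapped. The ratio of repressor to MYC gene TPM was 0.260 and 0.226 in NC and 0.298 and 0.393 in KO. The ratio of repressor to Max TPM was 0.729 and 0.594 in NC and 1.15 and 0.957 in KO. Mxd4 supplied 15.3% and 11.4% of the repressor TPM in NC and 22.7% and 23.7% in KO, and Mnt the largest share in all 4 libraries (40.7% to 56.7%). These ratios describe RNA, not protein, and were not tested.

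**Figure D3:**
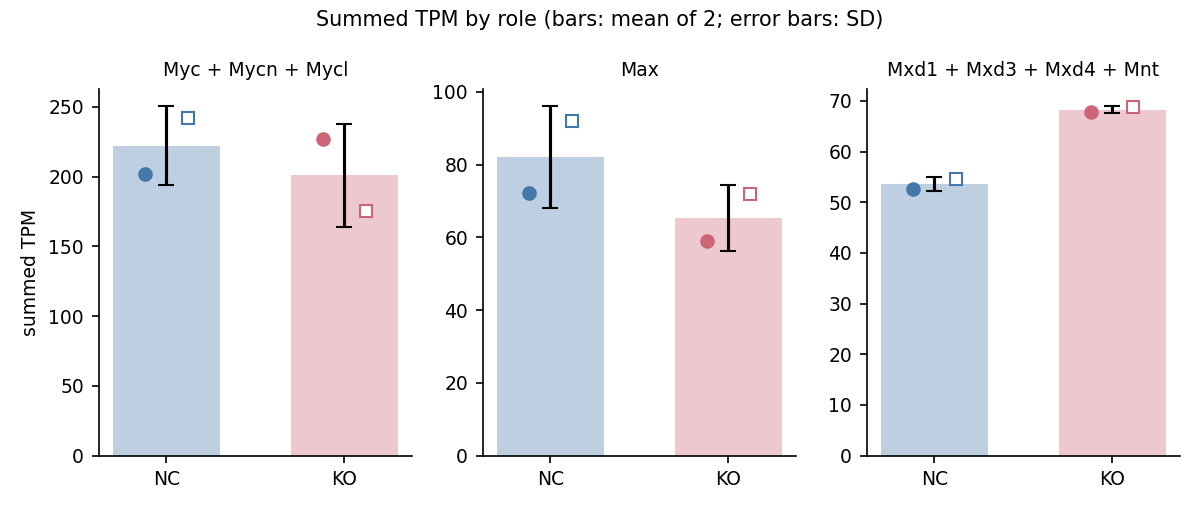
Summed TPM of the MYC genes, of Max and of the repressor genes in NC and KO (bars, mean of 2 libraries; error bars, SD; points, libraries; each axis starts at 0). The repressor sum (Mxd1, Mxd3, Mxd4 and Mnt) was 53.6 ± 1.36 TPM in NC and 68.2 ± 0.672 TPM in KO.

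The files also give, for each gene and library, a mean transcript length weighted by the estimated abundance of its isoforms, which turns counts into TPM. The highest length was 1.43-fold the lowest for Mxd4, 1.39-fold for Mycl, 1.24-fold for Mnt and 1.20-fold for Max, against a median of 1.06-fold over all genes tested. Mxd4 had 2475 bases in NC 1 but 3336, 3420 and 3543 bases in the others. Mycl had 2433 bases in KO 1 but 3356, 3393 and 3360 bases in the others. In each case 1 library stood apart from its own replicate. Both KO lengths of Mxd4 were above both NC lengths. Max (1333 to 1596 bases) and Mnt (2675 to 3311 bases) varied less. With 1 length per gene in all libraries, Mycl was at 3.66 and 4.13 TPM in NC and 8.22 and 5.33 TPM in KO, so its high KO 1 value was lower but still the highest. In that fit Mxd4 (1.34, adjusted p = 0.000126) and Mycl (0.64, adjusted p = 0.0217) passed and Max did not (-0.38, adjusted p = 0.0502, limma).

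**Figure D4:**
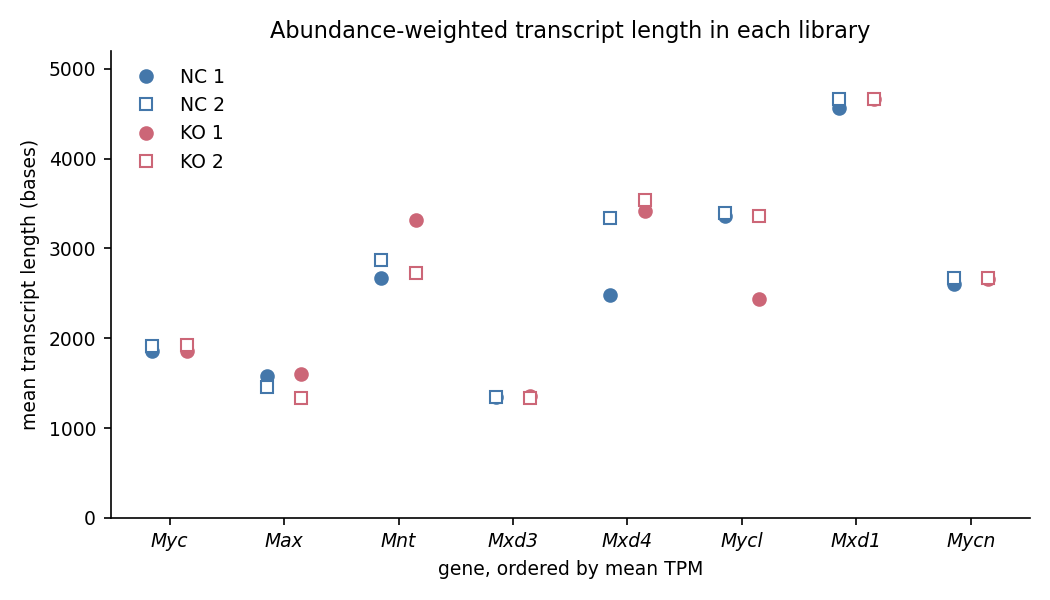
Abundance-weighted mean transcript length (bases) of the 8 genes in each library, with NC in blue, KO in red, replicate 1 filled and replicate 2 open. Mxd4 in NC 1 (2475 bases) and Mycl in KO 1 (2433 bases) lie below the other libraries of the same gene.

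Genes that share partners with the family were taken as a list of 5, and all 5 passed, 4 higher and 1 lower (80% and 20%, against 19.7% and 18.2% of all genes), with a median log2 fold change of 0.34. Mlxipl, which encodes ChREBP, a glucose-sensing partner of MLX, rose from 5.42 ± 0.42 to 29.6 ± 1.97 CPM (SD, n = 2). Its log2 difference was 2.45 (SE 0.16, edgeR adjusted p = 3e-12). Mxi1, the remaining MXD-type gene (also called Mxd2), rose from 55.8 ± 2.34 to 80.7 ± 2.22 CPM, by 0.53 (SE 0.096). Mlxip, which encodes MondoA, rose by 0.30 (SE 0.10, adjusted p = 0.0187), and Mga, which encodes a MAX partner of a Polycomb complex, by 0.34 (SE 0.11, adjusted p = 0.0188; named after its value was seen). Mlx, the MAX-like partner of MXD1, MXD4, MNT, MondoA and ChREBP, fell by 0.34 (SE 0.11, adjusted p = 0.0153). The calls for Mlx, Mlxip and Mga were lost with DESeq2 (adjusted p = 0.0754, 0.0604 and 0.0875). They were also lost without KO 2 (adjusted p = 0.134, 0.132 and 0.315), Mlx and Mga without NC 2 (0.0583 and 0.149) and Mlxip without NC 1 (0.283), and the list had 3 calls without NC 2 and 2 without KO 2. Mlxipl, Mlxip, Mlx and Mxi1 overlap exons of other genes on the other strand.

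Of 13 genes for the corepressors that MXD proteins and MNT recruit, 1 rose, 5 fell and 7 did not pass (46.2% called, against 37.9% of all genes, and 38.5% lower, against 18.2%), with a median of -0.22. Rbbp4, a histone chaperone of the SIN3 complex, fell from 111.7 ± 4.55 to 81.7 ± 2.40 CPM (log2 fold change -0.45, SE 0.093). Rbbp4 overlaps exons of Gm26722 and Sync on the other strand. Suds3 (-0.35) and Sap18 (-0.33), SIN3 complex subunits, also fell, and Ncor1, a nuclear receptor corepressor, rose (0.30). Sap18 and Ncor1 overlap exons of other genes on the other strand, and Sap18 shares exons with Mir3077 on the same strand. Sap18 lost its call without NC 1 or KO 2 and Ncor1 without NC 1 (adjusted p = 0.0837, 0.0817 and 0.223), and without KO 2 the list had 3 calls. The scaffold genes Sin3a (0.0025) and Sin3b (0.11) did not pass and were named after their values were seen.

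Of 17 genes for MYC's cofactors, 1 rose, 5 fell and 11 did not pass, with a median of -0.10. The share called, 35.3%, was close to the 37.9% of all genes. By direction, 29.4% fell, against 18.2% of all genes, and 5.88% rose, against 19.7%. Actl6a (-0.55, SE 0.11), Smarcb1 (-0.56, SE 0.11), Wdr5 (-0.49, SE 0.098) and Ruvbl1 (-0.48, SE 0.10) fell. Actl6a overlaps exons of Mrpl47 on the other strand. ACTL6A and SMARCB1 are chromatin remodelling subunits, WDR5 a histone methylation adaptor that MYC contacts, and RUVBL1 an ATPase of the TIP60 complex. The member that rose was Trrap (0.37, adjusted p = 0.0034; named after its value was seen), the scaffold of MYC's acetyltransferase complexes, and its call was lost without NC 1 (0.24, adjusted p = 0.135). Of 15 genes that set MYC protein stability or activity, 4 fell, none rose and 11 did not pass, with a median of -0.035. The share called was 26.7%, below the 37.9% of all genes. All of these calls were lower in KO, so 26.7% fell, against 18.2% of all genes. Among those that fell were the ubiquitin ligase subunit gene Skp2 (-0.70, SE 0.10), the mitotic kinase gene Plk1 (-0.56, SE 0.098) and the phosphatase inhibitor gene Set (-0.44, SE 0.094). Plk1 overlaps exons of Gm44985 on the other strand.

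Commonly cited MYC-activated targets were lower in KO in larger number. This list, like the others, was chosen with earlier results of these data known, so its share called is a description only. Of 38 genes 37 were tested, 19 fell (51.4%, against 18.2% of all genes), 1 rose and 17 did not pass, with a median of -0.37 against -0.0037. Many of these genes serve ribosome and nucleotide synthesis. Nme1, a nucleoside diphosphate kinase gene, averaged 100.1 ± 12.9 CPM in the NC libraries and 53.2 ± 4.81 CPM in the KO libraries (SD, n = 2). Its log2 difference was -0.91 (SE 0.10, edgeR adjusted p = 1.26e-07). Apex1, a DNA repair nuclease gene, fell by 0.84 (SE 0.096) to 52.9 ± 1.41 CPM. Ddx18, a nucleolar helicase gene, fell by 0.81 and Shmt2, a mitochondrial serine and one-carbon enzyme gene, fell by 0.76. Other well-known targets did not pass, among them Odc1 (-0.18), Ncl (-0.017), Npm1 (-0.020) and Ldha (0.050), named after their values were seen. Tert, the telomerase gene, named after its value was seen, was the gene that rose, from 6.82 ± 1.18 to 12.6 ± 0.89 CPM (0.88, SE 0.18). With each library left out the list had 19 to 23 calls. Limma on deposited TPM gave 11 (9 lower and 2 higher) at a pseudocount of 1, 3 (2 lower and 1 higher) at 0.1, and 0 unfiltered, where 16 had an unadjusted p under 0.05. Nme1 shares exons with Gm20390 on the same strand, and Apex1 and Shmt2 overlap other genes on the other strand. The summed markers of other cell types also differed between the groups, as given above, and their part was not tested.

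**Figure D5:**
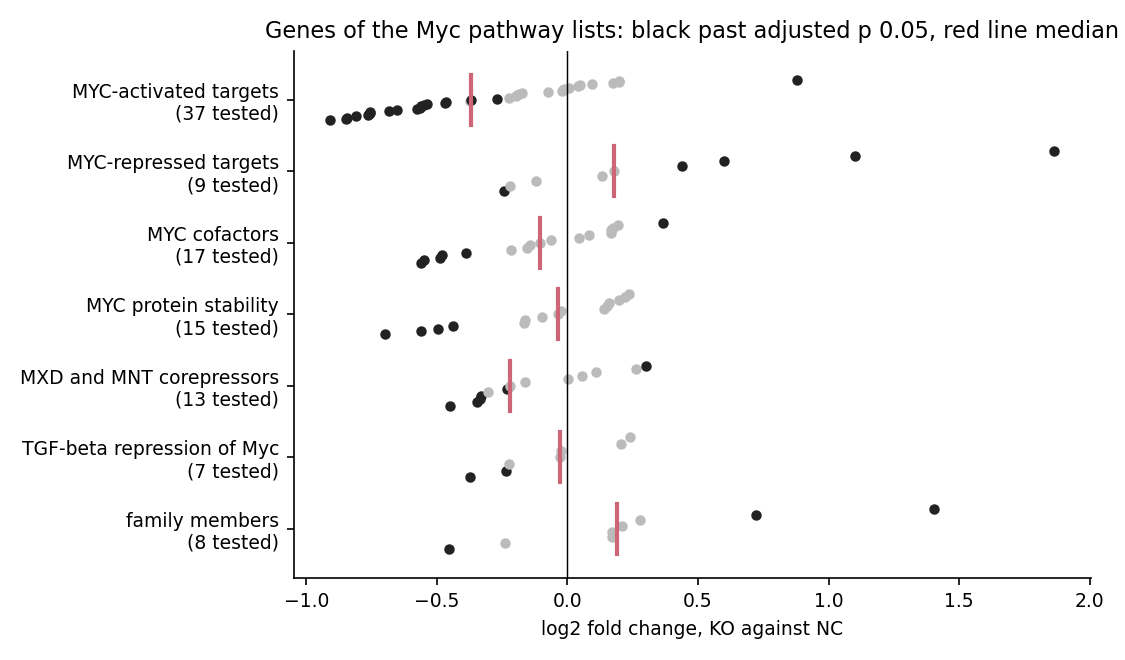
Log2 fold change of KO against NC for each tested gene of 7 lists (points, black where the adjusted p is under 0.05) with the list's median (red line). The MYC-activated targets lie mostly left of 0 with a median of -0.37.

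Genes that MYC is known to repress went the other way in part. Of 11 genes 9 were tested, 4 rose (44.4%, against 19.7% of all genes), 1 fell and 4 did not pass, with a median of 0.18. Gadd45a, a growth arrest gene, rose from 4.89 ± 0.68 to 17.7 ± 1.16 CPM (1.86, SE 0.18). Ndrg1 rose from 210.3 ± 7.27 to 451.6 ± 5.23 CPM (1.10, SE 0.091), Ndrg2 by 0.60 (SE 0.094) and Cdkn1a, the p21 cell-cycle inhibitor gene, by 0.44 (SE 0.092). Thbs1, an anti-angiogenic matrix gene and the sole fall, had -0.24 (adjusted p = 0.0366; named after its value was seen). Its call was lost with upper quartile scaling (adjusted p = 0.06), without NC 2 (0.265) and without KO 1 (0.117). Ndrg1 is also a hypoxia-induced gene, and Gadd45a and Cdkn1a are also p53 targets. Ndrg1, Gadd45a, Cdkn1a and Thbs1 overlap other genes on the other strand.

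For the SMAD, E2F and p107 complex through which TGF-beta represses Myc, 7 genes were tested, 2 fell, none rose and 5 did not pass. The median was -0.029. With upper quartile scaling, robust edgeR or the replicate block, 1 gene of the list was called higher. The share called was 28.6%, against 37.9% of all genes, and the share that fell was also 28.6%, against 18.2%. Rbl1, which encodes p107, fell by 0.37 (SE 0.099, adjusted p = 0.00413) and E2f4 by 0.24 (SE 0.090, adjusted p = 0.0395). The E2f4 call was lost without NC 1, NC 2 or KO 2 (adjusted p = 0.0901, 0.202 and 0.132) and with upper quartile scaling (0.0636). This list had 1 call without NC 1 or KO 2 and 4 without KO 1. The lincRNA gene Pvt1, the neighbour of Myc on chromosome 15 (62037986 to 62378096), rose from 18.8 ± 1.54 to 24.9 ± 0.97 CPM (0.40, SE 0.13, adjusted p = 0.016), whereas Myc did not pass. The Pvt1 call was lost with DESeq2 (adjusted p = 0.0823), without NC 1 (0.129) and without KO 1 (0.0593). Mir17hg, the host of the MYC-induced miR-17 cluster, rose from 2.07 ± 0.063 to 6.79 ± 0.49 CPM (1.71, SE 0.28, adjusted p = 1.57e-05). NC libraries held 24 and 28 counts and KO libraries 94 and 87. Pvt1 shares exons with Gm27718, Gm27913 and Gm27957 on the same strand and overlaps H2afy3 on the other strand. Mir17hg shares exons with the microRNA genes of its cluster on the same strand.

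The genes whose pattern over the 4 libraries was nearest to that of Myc were Psmf1, Zfp931 and Pcgf2, with Euclidean distances of 0.0187, 0.0251 and 0.0273 in centred log2 CPM. Psmf1 encodes a proteasome inhibitor and Pcgf2 a Polycomb ring finger protein. With 4 points and 12510 genes, such closeness is a description only. Like Myc, they were highest in NC 2 and lowest in KO 2, which follows from how they were picked.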

How the data were processed

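RNA of 4 Hepa1-6 libraries (2 NC, 2 KO) was extracted with TRIzol and made into strand-keeping libraries, per the labels' protocols. Alignment with STAR and quantification with RSEM on GRCm38 (mm10) are named in the submitters' processing notes. Versions, annotation release and strand setting are not given in the sources used here. Per the file headers, the authors deposited RSEM expected counts, which are estimates without scaling. TPM is the authors' length-scaled value, per the file headers, and the deposited FPKM values were not used. The deposited transcript length is a mean over isoforms in bases.

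Expected counts were rounded and filtered with filterByExpr, leaving 12510 genes. They were scaled by TMM and tested with edgeR 4.0.16 (R 4.3.3) by quasi-likelihood, with group as sole term and Benjamini-Hochberg adjustment over all genes tested. CPM uses the TMM-scaled library size. With 2 libraries a group the SD is poorly known, the test borrows spread across genes (prior degrees of freedom 25.8), and intervals cover counting error and spread between these libraries. Alternatives used DESeq2 1.42.0 and limma 3.58.1 on log2(TPM + 1) or log2(TPM + 0.1), other scalings and filters, each library left out, and a replicate block.

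Positions come from GENCODE M21, matched by gene ID without version (54809 of 54838). The members and the 10 other lists were chosen with earlier results of these data known, and the lists were written from general knowledge. Named genes are all members, Acvr2a, up to 4 genes per list with the lowest p past 0.05, and the 3 genes nearest to Myc. Of these, 2 are not reported here. Genes outside this rule are Mga, Trrap, Tert, Thbs1, Odc1, Ncl, Npm1, Ldha, Sin3a, Sin3b and the other markers, all named after their values were seen.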

Additional observations from a re-analysis of the deposited data

How the results depend on the processing

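Among the 8 members, Mycn reversed its direction without NC 1 and Mxd3 without KO 1. The other members, called or not, kept their direction under all 14 alternatives. Mxd4 lost its call only with unfiltered TPM (1.05, limma adjusted p = 0.0741). Max lost its call in the 4 TPM fits, at -0.32 in the deposited ones and -0.38 with 1 length per gene, a fit chosen after seeing the data. Mycl lost its call with deposited TPM (0.86 with a pseudocount of 1, filtered or not, and 1 with 0.1), and it ranged from 0.42 to 0.97 with a library left out. Myc gained a call with robust edgeR (-0.24, adjusted p = 0.0349), with no filter (-0.25, adjusted p = 0.0365) and with the replicate block (-0.24, adjusted p = 0.0457), and ranged from -0.36 to -0.12 with a library left out, over all alternatives with adjusted p from 0.00423 to 0.606. Mxd3 ranged from -0.048 to 0.43 and Mycn from -0.072 to 0.80 with a library left out. The number of members called was 3 to 4 with a library left out, 1 with filtered TPM at either pseudocount and 0 with unfiltered TPM, where 1 had an unadjusted p under 0.05. DESeq2 called 3.

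Over all genes the count of 4741 became 1888 with filtered TPM, 1096 with a pseudocount of 0.1 and 0 with unfiltered TPM (4730 at an unadjusted p under 0.05). Of the calls 51.9% were higher in KO in the count fit, 73.7% and 82% in the 2 filtered TPM fits and 68.2% with 1 length per gene. The cause was not tested. In filtered TPM at a pseudocount of 1, the lists had 2 calls for the extended network, 1 for corepressors, 0 for cofactors, 0 for protein stability, 11 for activated targets, 0 for the TGF-beta complex and 1 for the non-coding genes. At 0.1 these were 1, 0, 0, 0, 3, 0 and 1, with 3 repressed targets. At an unadjusted p under 0.05 the lists with 0 calls had 6, 3 and 1 genes at a pseudocount of 1 (cofactors, stability, TGF-beta complex) and 3, 4, 3 and 0 at 0.1 (corepressors first). Unfiltered TPM called 0 in each list, with 2, 3, 6, 5, 16, 5, 1 and 1 at an unadjusted p under 0.05 in the order of the report. With 1 length per gene the extended network had 2, corepressors 0 (3 unadjusted) and the TGF-beta complex 0 (2 unadjusted). DESeq2 gave 2 in the extended network and 1 of the non-coding genes. With a library left out, calls ranged from 2 to 5 in the extended network, 3 to 8 in corepressors, 1 to 4 in the TGF-beta complex and 1 to 2 of the non-coding genes. In these last fits a lone library is assumed to vary like the other group.

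The replicate numbers are not stated to pair the libraries, and same-numbered libraries did not deviate together (correlation -0.0116 across genes). The replicate block called 5006 genes. Depth limits Mycn most.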

Other observations

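E-box letters were counted beside the calls of the MYC-activated targets. Of the 19 that fell, 3 held CACGTG in their RefSeq promoter, 12 did not and 4 had no promoter in the table. Of the 17 that did not pass, 4 held it, 12 did not and 1 had no promoter in the table. Over all genes with a promoter 8.09% held it in at least 1 window. Tert, the gene that rose, did not hold it.

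The Mycn promoter held 3 matches to the E2F letters TTTGGCGC, TTTCGCGC or TTTCCCGC (either strand), against 1.84% of all promoters with any match. None of the other members with a promoter held a match.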
